A study of Mus musculus with 27 samples.

Results

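The genes of protein folding and stress in the endoplasmic reticulum (ER) were followed in mouse calvarial osteoblast cultures. The 36 genes were taken from a list of symbols, each matched to 1 Ensembl gene of the NCBIM37 annotation, out of 37991 genes in the files. All 36 passed the filter on low counts that left 15659 genes to test. They fall into 5 roles, which are 6 collagen folding genes, 4 disulfide exchange genes, 11 general chaperones, 5 genes of ER-associated degradation, and 10 sensors and stress factors.

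The cells came from the skull vault bones (calvariae) of C57BL/6J-Col3.6 CFP mice aged 5 to 9 days, grown for 4 days before sorting. The Col3.6 promoter fragment drives cyan fluorescent protein in cells of the osteoblast lineage from an early stage, and fluorescent cells were sorted and then kept in ascorbic acid and beta-glycerol phosphate. RNA was taken every other day from day 2 to day 18 of differentiation, from a culture with the same strain, sort and medium at each time. Each of the 9 days had 3 profiles that carried 1 barcode in 3 sequencing lanes, so that, although the study presents them as triplicate samples, a day was treated as 1 library, days are not replicated, and every test uses the scatter of the 9 days around a line or within 3 phases, which were early (days 2, 4 and 6), middle (days 8, 10 and 12) and late (days 14, 16 and 18).

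A cell that secretes collagen sends each chain into the ER, where general chaperones such as Hspa5 (BiP) and Hsp90b1 (GRP94) hold it, disulfide isomerases join its cysteines, and a dedicated set of enzymes modifies its prolines before the triple helix closes. When unfolded protein builds up, the sensors Ern1 (IRE1), Eif2ak3 (PERK) and Atf6 switch on transcription factors, among them Xbp1 and Atf4, and the degradation machinery removes chains that fail to fold. Ascorbic acid is a cofactor of the collagen hydroxylases, and osteoblasts secrete type I collagen as the bulk of bone matrix.

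The total of a day ranged from 22470195 to 62009157 estimated counts, with a median of 43146793. A library held between 160 and 121805 counts of a listed gene, with Trib3 aside, and the 95% Wilson interval reached from 0.561% to 15.5% of the value to each side (median 2.94%). These intervals cover counting error only. Trib3 had 106 counts in all 9 libraries together. Levels of the same gene between days are given as CPM, counts per library size after upper-quartile scaling, and levels of different genes are compared only as TPM, an abundance that is divided by transcript length. A fitted change is the log2 difference from day 2 to day 18 on a straight line, with its standard error (SE) and a P-value from the quasi-likelihood test of edgeR, adjusted by Benjamini-Hochberg over 15659 genes. Since the RNA is from whole cultures, fewer cells of a type and less RNA per cell cannot be told apart.

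Promoter sequence was read for the listed genes because many of them are known targets of the stress factors through a short element. The ER stress response element (ERSE) has the letters CCAAT and CCACG with 9 free bases between them, and NF-Y binds the CCAAT end and ATF6 or XBP1 the CCACG end. RefSeq windows (GRCm38.p6, from 250 bases before to 50 bases after the transcription start) were found for 30 of the 36 genes, and Fkbp10, Hyou1, Manf, Derl1, Atf6 and Creb3l1 were not matched. On either strand, ERSE was present in 8 of these 30 genes (26.7%), against 37 of 27025 genes (0.137%) and 39 of all 32851 windows (0.119%). With at most 1 mismatch in the 10 fixed letters, 13 of the 30 genes (43.3%) and 466 of all 27025 genes (1.72%) had a match.

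The 9 copies of ERSE in the 8 genes are shown because they share their ends and differ in the spacer between. Capitals mark the fixed letters, the sequence runs 5′ to 3′ on the strand of the gene, and a copy on the other strand starts with CGTGG and ends with ATTGG.
Hspa5, chr2:34772025-34772043, + strand: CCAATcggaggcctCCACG
Hsp90b1, chr10:86705638-86705656, - strand: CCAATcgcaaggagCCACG
Hsp90b1, chr10:86705533-86705551, - strand: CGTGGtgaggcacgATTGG
Canx, chr11:50325800-50325818, - strand: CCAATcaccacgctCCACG
Calr, chr8:84847075-84847093, - strand: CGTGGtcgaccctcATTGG
Dnajc3, chr14:118937827-118937845, + strand: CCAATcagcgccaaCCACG
Creld2, chr15:88819520-88819538, + strand: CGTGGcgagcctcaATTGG
Pdia6, chr12:17266491-17266509, + strand: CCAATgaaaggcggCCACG
Syvn1, chr19:6046532-6046550, + strand: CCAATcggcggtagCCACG

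The first base of these copies lay from 44 bases (Syvn1) to 212 bases (the far copy of Hsp90b1) before the start, and the copy of Hspa5 lay 65 bases before it. A related element, ERSE-II with ATTGG and CCACG 1 free base apart, was present in Dnajb11 and Herpud1, against 0.0365% of all windows.
Dnajb11, chr16:22857852-22857862, + strand: ATTGGcCCACG
Herpud1, chr8:94386377-94386387, + strand: ATTGGgCCACG

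The core of the unfolded protein response element, TGACGTGG, was in none of the 30 genes and in 0.676% of all windows. A CCAAT-enhancer-ATF response element with the letters TGATGNAA was in Herpud1 and Trib3 and in 3.97% of all windows. The motifs were searched as letters on both strands, ERSE and ERSE-II share the CCACG end, and a match is a description of the sequence and not of binding.

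The 250 bases before the start of Hspa5 and Hsp90b1, the most abundant of the listed genes, are printed with their ERSE copies in capitals. Hspa5 holds 1 copy near its start and Hsp90b1 holds a copy on each strand.
Hspa5, chr2:34771840-34772089, + strand: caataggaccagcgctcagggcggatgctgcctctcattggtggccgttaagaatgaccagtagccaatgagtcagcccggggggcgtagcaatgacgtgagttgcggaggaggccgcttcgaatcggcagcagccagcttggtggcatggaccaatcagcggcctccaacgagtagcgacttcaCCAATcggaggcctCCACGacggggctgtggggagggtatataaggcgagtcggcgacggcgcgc
Hsp90b1, chr10:86705445-86705694, - strand: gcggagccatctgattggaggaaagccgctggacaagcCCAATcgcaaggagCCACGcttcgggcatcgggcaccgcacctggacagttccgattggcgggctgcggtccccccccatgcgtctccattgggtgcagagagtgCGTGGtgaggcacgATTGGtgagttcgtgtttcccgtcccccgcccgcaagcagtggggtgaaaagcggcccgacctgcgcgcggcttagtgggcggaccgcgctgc

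Per transcript length, the chaperones Hsp90b1 and Hspa5 were the most abundant of the listed genes, and the 4 lowest were sensors and stress factors. Hsp90b1 had a mean of 1995 ± 315 TPM (SD over 9 days) and Hspa5 of 803 ± 65.3 TPM, followed by the disulfide isomerase Pdia3 at 630.4 TPM and the collagen chaperone Serpinh1 (HSP47) at 490 TPM. Each of the first 4 genes was above the next in 9 of 9 libraries except Serpinh1, which was above the lectin chaperone Calr (450 TPM) in 7. At the low end lay Atf6 at 12.9 TPM, Ppp1r15a at 8.41 TPM, Ern1 at 6.85 TPM and Trib3 at 0.478 TPM. In the order of means, 13 of the 35 neighbouring pairs were further apart than the larger SD over days, and the order from Atf4 (109 TPM) down to Dnajc3 (66.2 TPM) was not separated in this way. The plot of levels shows all 36 genes in this order.

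**Figure D1:**
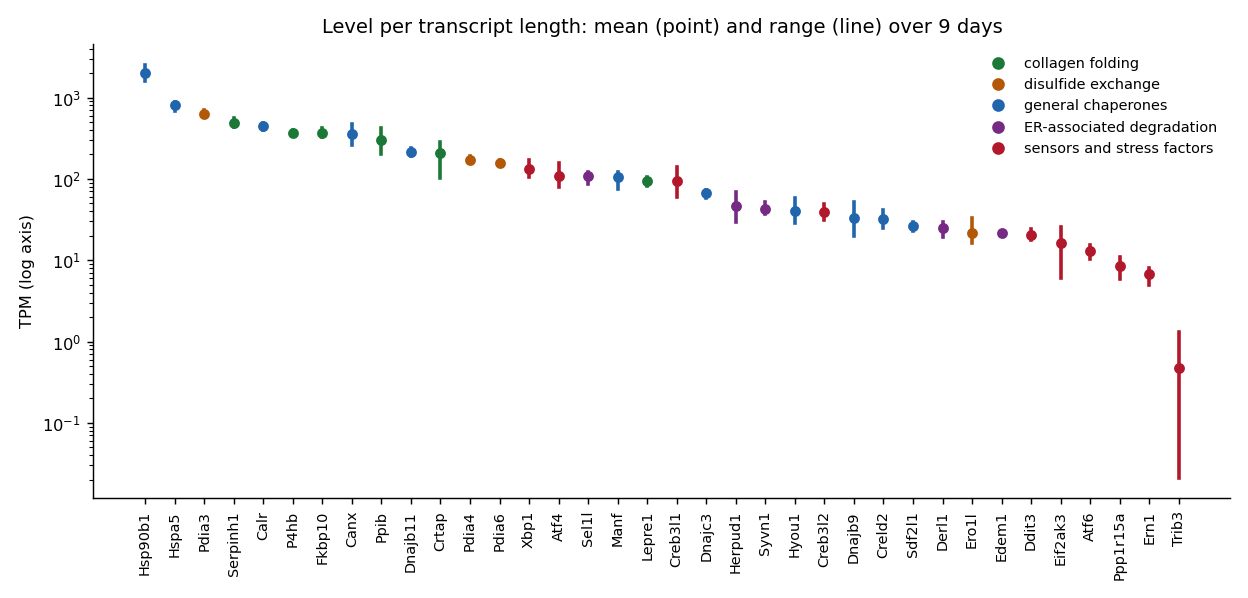
Level of each of the 36 genes in TPM after upper-quartile normalization (log axis), with the mean of 9 days as a point, the range over the days as a line and the role as the colour. Hsp90b1 stood highest with a mean of 1995 TPM, and Trib3 lowest with 0.478 TPM and the widest relative range.

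Over the 9 days the listed genes parted in direction rather than moving as a block. On the straight line 10 genes rose, 8 fell and 18 did not pass an adjusted P of 0.05. Among all 15659 genes tested, 54.3% passed, with 28.3% higher and 26.1% lower, so a share of 18 in 36 is close to the background, and what the lines describe is which genes moved and how far. The median fitted log2 change was -0.15 for the 36 genes and 0.05 for all genes. The libraries of the early and late days did not overlap for 25 of the 36 genes (69.4%), against 62.2% of all genes tested. With a natural spline in day, which tests any change over the days, 23 of the 36 genes passed, against 59.1% of all genes tested, which is again close to the background. Atf6 (adjusted P = 0.00947), Ppp1r15a (0.0152), Creld2 (0.0209), Hspa5 (0.0419) and Serpinh1 (0.0473) passed this spline test in edgeR but not the line.

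The summed level of a role shows the same parting on the scale of TPM, as a description without a test. The 11 general chaperones summed to 4844, 4703 and 4574 TPM on early days, 3794, 3767 and 3948 TPM on middle days and 3922, 3887 and 3679 TPM on late days, so that all early libraries lay above all later ones. Hsp90b1 is the largest part of this sum. The 6 collagen folding genes summed to 1629, 1615 and 1741 TPM early, 1705, 1826 and 1951 TPM in the middle and 1997, 2007 and 1918 TPM late, and the 10 sensors and stress factors to 419, 399 and 413 TPM early, 416, 367 and 464 TPM in the middle and 484, 497 and 523 TPM late. In both of these roles every late library was above every early one. From day 2 to day 18, Crtap went from 101 to 266 TPM and Ppib from 201 to 302 TPM, while Fkbp10 went from 419 to 323 TPM. Creb3l1 went from 65.5 to 141 TPM and Xbp1 from 107 to 173 TPM, while Atf4 went from 156 to 101 TPM. The 5 degradation genes summed to between 194 TPM (day 2) and 269 TPM (day 16), also with every late library above every early one. The 4 disulfide exchange genes summed to between 908 TPM (day 10) and 1080 TPM (day 6), with every late library below every early one.

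Markers of other cells moved over the same days, and their part in the results below was not tested. The summed level of the 7 monocyte and macrophage markers lay between 19.1 and 42.1 CPM on early days, between 48.3 and 293 CPM on middle days and between 351 and 1363 CPM on late days, and 6 of 7 rose on the line. The 5 adipocyte markers went from 2.20 to 6.17 CPM on early days to 98.0 to 201 CPM on late days, and 5 of 5 rose. Osteoblast markers (10 genes) summed to between 8708 and 13732 CPM early and between 21841 and 26213 CPM late, with 7 of 10 higher and 0 lower. Most of this sum is Col1a1 and Col1a2. The osteoblast markers Bglap and Dmp1 were near the detection floor of 3 counts in the first libraries. Bglap had between 1 and 5 counts on days 2 to 10, and Dmp1 between 3 and 9 counts on days 2 to 6. On days 2, 4 and 6, Ibsp had 30, 5 and 9 counts, Phex 38, 57 and 79 and Alpl 592, 48 and 31. Sp7 was highest on day 2 at 49.8 CPM, with 7.51 and 4.54 CPM on days 4 and 6 and 14.2 CPM on day 18. For other lists, the early and late sums were 30.5 to 65.9 and 155 to 160.3 CPM for osteoclast markers, of which Calcr and Dcstamp had 0 counts, 5.28 to 10.2 and 19.3 to 26.6 CPM for endothelial markers, 0 to 0.0468 and 1.44 to 4.15 CPM for mast cell markers, of which Mcpt4 and Tpsb2 had 0 counts, and 289 to 393 and 239 to 324 CPM for chondrocyte markers. Most of the osteoclast sum is Ctsk, with 29.9 CPM on day 2 and 148 CPM on day 18. Of 4 tested osteoclast markers, 2 rose and 0 fell. Among 3 tested endothelial markers, 2 rose and 1 fell. Tek is the largest part of the late endothelial sum, while Kdr went from 4.47 CPM on day 2 to 0.542 CPM on day 18. Among 3 tested chondrocyte markers, 1 rose and 1 fell. Col2a1 went from 344 CPM on day 2 to 138 CPM on day 18, while Sox9 went from 43.4 to 110 CPM.

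**Figure D2:**
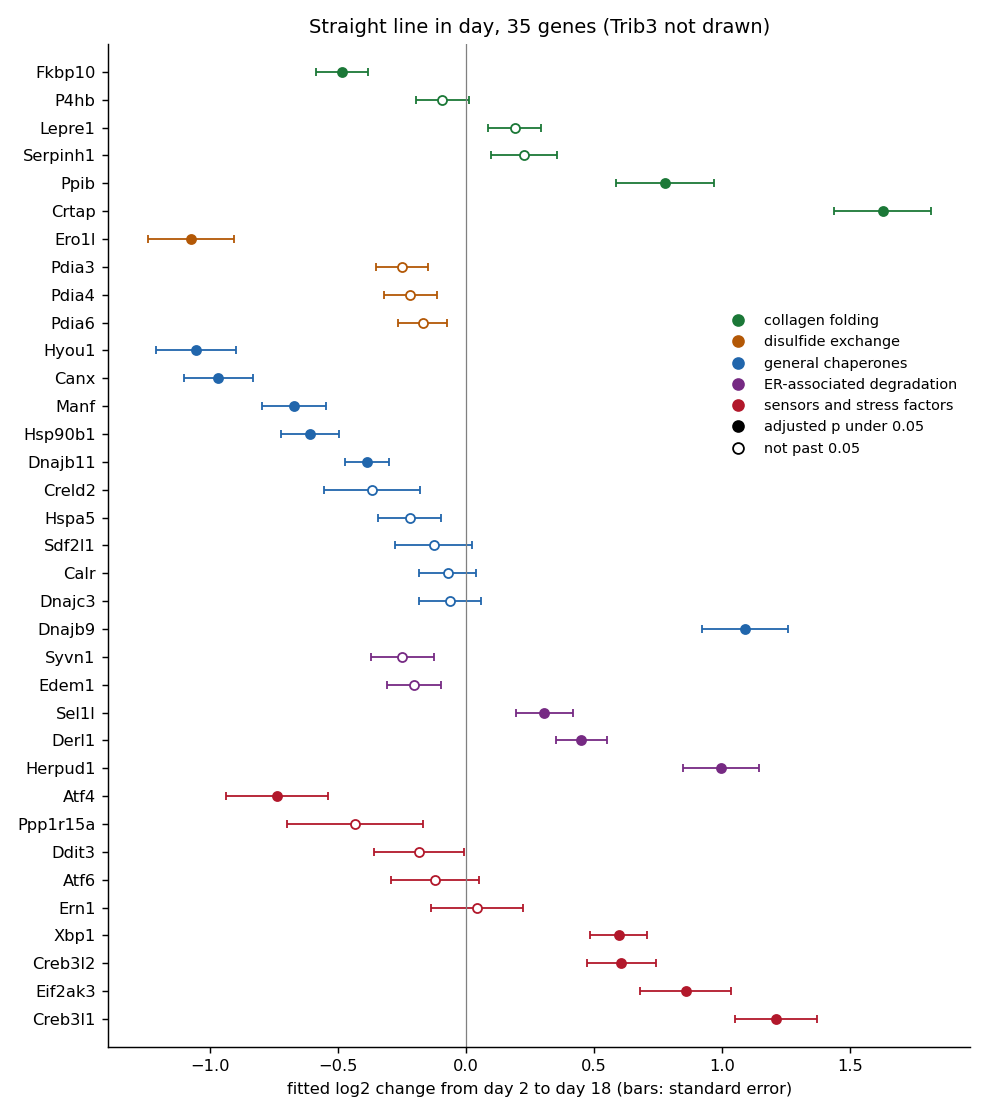
Fitted log2 change from day 2 to day 18 of 35 genes (x axis), grouped by role (colour), with bars of 1 standard error and filled points where edgeR's adjusted P was under 0.05. Crtap lies furthest to the right at 1.63 and Ero1l furthest to the left at -1.08, and filled points lie on both sides of 0 in every role except disulfide exchange and ER-associated degradation.

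Of the 6 collagen folding genes, 2 rose, 1 fell and 3 did not pass (all genes tested: 28.3% higher, 26.1% lower). Both genes that rose, Crtap and Ppib, encode partners of the same complex, which 3-hydroxylates collagen prolines together with Lepre1. Crtap (ENSMUSG00000032431, chr9:114284252-114299793 on the minus strand of NCBIM37) had 78.0, 88.5 and 117 CPM on the early days, 122, 174 and 193 CPM on the middle days and 226, 196 and 225 CPM on the late days. Every late library was above every middle library, and every middle library above every early library. The fitted change of Crtap was 1.63 (SE = 0.19, adjusted P = 0.000101 from edgeR), the largest rise of the 36 genes.

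Ppib, the prolyl isomerase cyclophilin B, had 93.2, 95.4 and 115 CPM early, 116, 153 and 149.8 CPM in the middle and 144, 178 and 130.4 CPM late. Its peak was on day 16, and it rose by a log2 change of 0.78 (SE = 0.19, adjusted P = 0.00588 from edgeR). Estimated counts of Ppib were not whole numbers in any of the 27 profiles, so reads shared with other transcripts enter its level. Lepre1, the prolyl 3-hydroxylase of the complex, lay between 104 CPM on day 2 and 124 CPM on day 12, with a fitted change of 0.19 (SE = 0.10, adjusted P = 0.141 from edgeR). On day 18 the members of the complex differed in their values, with Crtap at 2.89 times its day 2 level, Ppib at 1.40 times and Lepre1 at 1.14 times. These ratios are single libraries and were not tested against each other.

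Fkbp10, a prolyl isomerase that binds collagen chains, was the collagen folding gene that fell. It had 337, 293 and 293 CPM early, 259, 265 and 246 CPM in the middle and 261, 231 and 231 CPM late, so that the early libraries lay above all later ones. The fitted change was -0.48 (SE = 0.10, adjusted P = 0.00251 from edgeR), and the call was lost with limma on TPM (-0.33, adjusted P = 0.0506). Its counts were not whole in 85.2% of the profiles.

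Serpinh1 (HSP47, chr7:106493885-106501740, minus strand), the chaperone that binds the collagen triple helix, had 665, 563 and 543.5 CPM early, 565, 644.5 and 623 CPM in the middle and 669.9, 655 and 709.8 CPM late. Its early and late days overlapped, because day 2 was high, and the line did not pass (0.23, SE = 0.13, adjusted P = 0.159 from edgeR). Without day 2 the line of Serpinh1 passed. P4hb, the disulfide isomerase that is also a subunit of prolyl 4-hydroxylase, had the narrowest range of the role relative to its level, from 563 to 648 CPM, with a fitted change of -0.09 (SE = 0.10, adjusted P = 0.471 from edgeR).

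**Figure D3:**
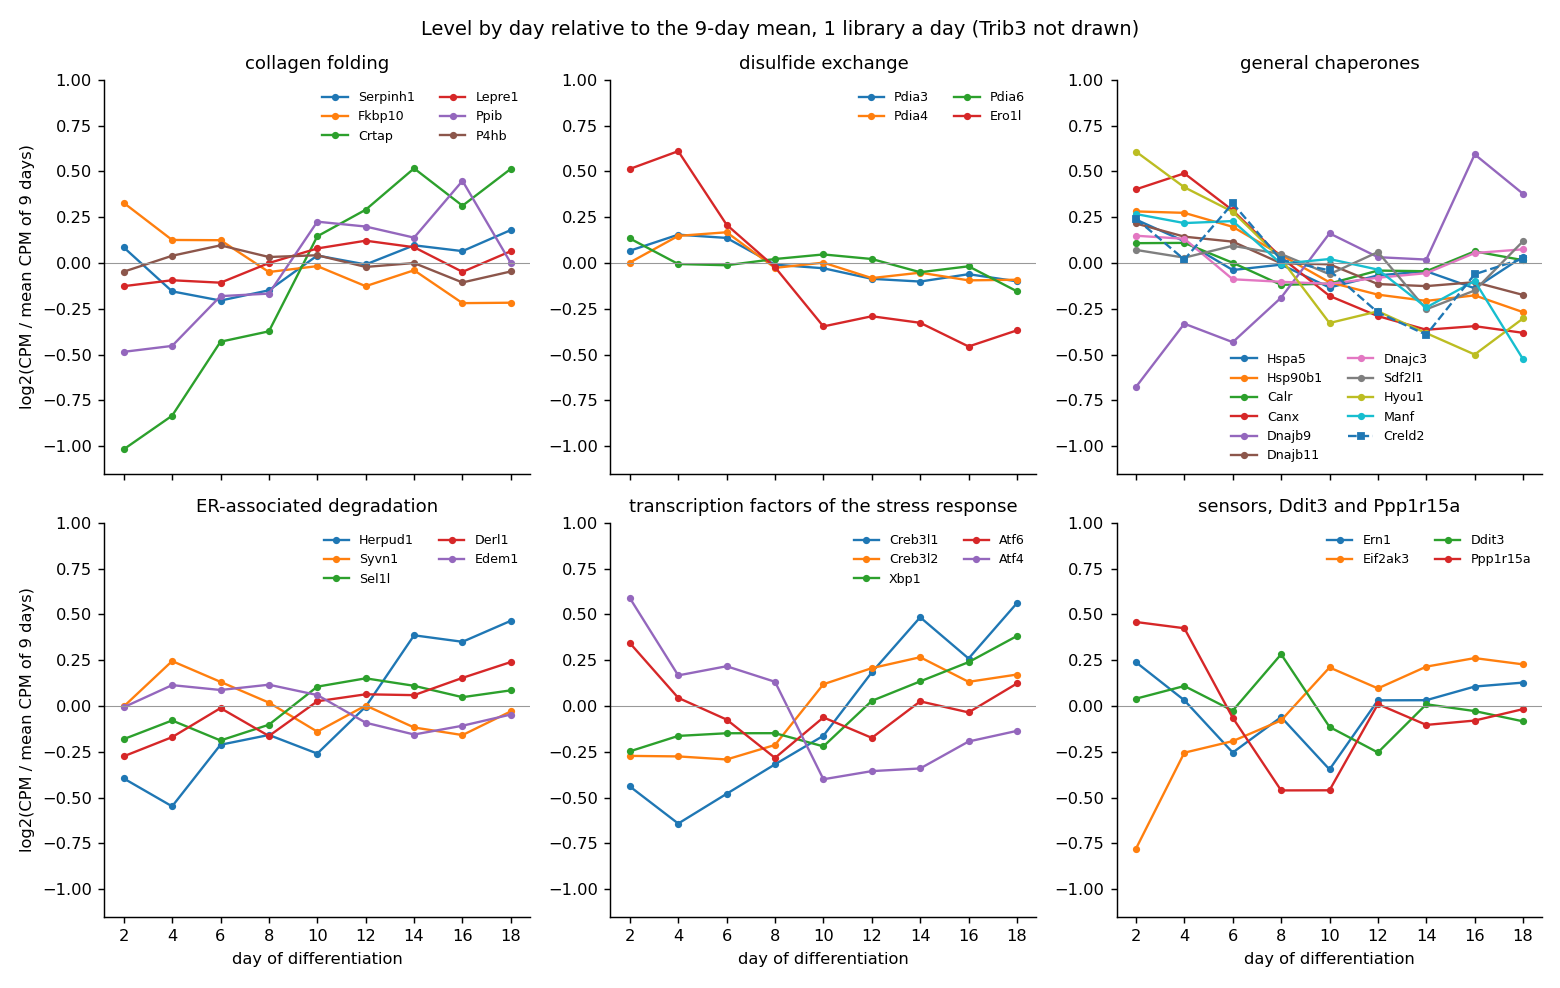
Level of 35 genes on each day, as log2 of the CPM over the mean of the 9 days (y axis) against day of differentiation (x axis), 1 library a day and 1 panel a role, with the sensors and stress factors in 2 panels. Crtap climbed from the bottom of its panel between days 2 and 14, while Ero1l, Canx and Hyou1 stepped down between days 4 and 10 and stayed low.

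Among the 4 disulfide exchange genes 1 fell and 3 did not pass (all genes tested: 28.3% higher, 26.1% lower). Ero1l (chr14:45902879-45938237, minus strand), the oxidase that recharges the disulfide isomerases, had 80.0, 85.6 and 64.8 CPM early, 55.2, 44.1 and 45.8 CPM in the middle and 44.7, 40.9 and 43.4 CPM late. The early libraries lay above all others, and after day 10 the level stayed within a narrow band. The fitted change was -1.08 (SE = 0.17, adjusted P = 0.000445 from edgeR), the largest fall of the listed genes that passed. The isomerases Pdia3 (853 to 1019 CPM, -0.25, adjusted P = 0.0607 from edgeR), Pdia4 (227 to 272 CPM, -0.22, adjusted P = 0.0974 from edgeR) and Pdia6 (171 to 209 CPM, -0.17, adjusted P = 0.154 from edgeR) had fitted changes of small size and the same sign. Pdia3 stayed short of the threshold in 14 of 21 alternatives and passed, among others, with TMM factors (-0.29, adjusted P = 0.0377) and with DESeq2. Pdia4 also passed with DESeq2.

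General chaperones, the largest role, held the largest number of falls, with 5 of 11 lower, 1 higher and 5 not past the threshold, and a median fitted log2 change of -0.37. Of all genes tested, 26.1% were lower and 28.3% higher, and no role was tested against these shares. Hsp90b1 (chr10:86152954-86168254, minus strand of NCBIM37) had 2817, 2801.5 and 2657 CPM early, 2388.5, 2154 and 2056 CPM in the middle and 2008, 2050.4 and 1924 CPM late. It fell by 0.61 on the log2 scale (SE = 0.11, adjusted P = 0.0012 from edgeR), with every early library above every middle library and every middle library above every late one. In TPM the early libraries also lay above the rest, but middle (1749 to 1932 TPM) and late libraries (1613 to 1863 TPM) overlapped. Counts of Hsp90b1 were not whole in any profile, so shared reads enter this level as well.

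Canx (calnexin, chr11:50107969-50139175, minus strand of NCBIM37), a membrane lectin that holds new glycoproteins, had 862, 916 and 796 CPM early, 667, 576 and 534 CPM in the middle and 507, 514 and 501 CPM late. Early libraries lay above middle ones and middle above late, and day 18 stood at 0.581 of the day 2 level. In TPM the middle (273 to 371 TPM) and late libraries (265 to 345 TPM) overlapped. The fitted change of Canx was -0.97 (SE = 0.14, adjusted P = 0.000249 from edgeR). Calr (calreticulin), the soluble relative of Canx, lay between 422 CPM on day 8 and 495 CPM on day 4, and its line did not pass (-0.07, SE = 0.11, adjusted P = 0.619 from edgeR). The sign of the Calr value turned with limma on TPM (0.12, adjusted P = 0.534).

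Hyou1, a large chaperone that exchanges nucleotide on BiP, had 158, 138 and 126 CPM early, 105, 82.7 and 86.5 CPM in the middle and 79.6, 73.4 and 84.2 CPM late. Early libraries were above all others, with a fitted change of -1.05 (SE = 0.16, adjusted P = 0.000354 from edgeR). Dnajb11, a co-chaperone of BiP with a J domain, fell from 136 CPM on day 2 to 104 CPM on day 18 (-0.39, SE = 0.09, adjusted P = 0.00334 from edgeR), a call that was lost with limma on TPM (adjusted P = 0.0883). Manf, a secreted protein that ER stress induces, fell from 56.7 to 32.7 CPM (-0.67, SE = 0.12, adjusted P = 0.00126 from edgeR). Manf lies opposite Vprbp, which had 27486 counts against 17906 for Manf, and no strand is stated for the counting, so reads of the pair cannot be told apart where they overlap. Entries of Rbm15b with 630 and 3780 counts overlap Manf on its own strand. Counts of Manf were not whole in 48.1% of the profiles.

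Hspa5 itself (BiP, chr2:34627490-34632051, plus strand of NCBIM37) had 1319, 1215 and 1090.2 CPM early, 1113, 1020.4 and 1068 CPM in the middle and 1085, 1017.5 and 1147 CPM late. Day 2 was the highest and day 16 the lowest, and the early and late days overlapped. The line did not pass (-0.22, SE = 0.12, adjusted P = 0.158 from edgeR), and it passed without day 18. The remaining chaperones Dnajc3, Sdf2l1 and Creld2 did not pass on the line and had ranges of 194 to 232, 11.8 to 15.3 and 17.2 to 28.3 CPM. The line of Creld2 passed without day 18.

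Dnajb9 (ERdj4), a J-domain co-chaperone that directs misfolded chains to degradation, was the general chaperone that rose. It had 21.2, 26.97 and 25.2 CPM early, 29.8, 38.0 and 34.7 CPM in the middle and 34.4, 51.2 and 44.1 CPM late. All late libraries were above all early ones, and the fitted change was 1.09 (SE = 0.17, adjusted P = 0.000426 from edgeR). Its counts were not whole in 51.9% of the profiles.

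Of the 5 genes of ER-associated degradation, 3 rose, 0 fell and 2 did not pass (all genes tested: 28.3% higher, 26.1% lower). Herpud1 (chr8:96910338-96919277, plus strand of NCBIM37), a membrane protein that gathers the degradation complex, had 18.9, 17.02 and 21.5 CPM early, 22.3, 20.8 and 24.8 CPM in the middle and 32.5, 31.7 and 34.3 CPM late. The step lay between the middle and the late days, which did not overlap, and the fitted change over the line was 1.00 (SE = 0.15, adjusted P = 0.000346 from edgeR). Derl1, a channel component, rose from 37.3 CPM on day 2 to 53.3 CPM on day 18 (0.45, SE = 0.10, adjusted P = 0.00322 from edgeR).

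Sel1l, the adaptor of the ubiquitin ligase Syvn1 (HRD1), lay between 214 and 230.3 CPM on early days and between 251.5 and 263 CPM on late days. It passed narrowly (0.31, SE = 0.11, adjusted P = 0.0391 from edgeR), and the call was kept in 10 of 21 alternatives and lost, among others, with TMM factors and without any 1 of days 2, 4, 6, 8, 12 and 14 (adjusted P up to 0.12). Syvn1 ranged from 52.4 to 69.4 CPM and the mannosidase-like Edem1 from 69.4 to 83.8 CPM, with fitted changes of -0.25 and -0.20 (SE = 0.12 and 0.11, adjusted P = 0.109 and 0.128 from edgeR). The adaptor and the ligase thus had fitted changes of opposite sign, a difference that was not tested.

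Of the 10 sensors and stress factors, 4 rose, 1 fell and 5 did not pass (all genes tested: 28.3% higher, 26.1% lower). Both listed factors of the Creb3 family, which are membrane-bound and cut free in the Golgi, rose. Creb3l1 (OASIS, chr2:91822485-91864659, minus strand), which is known to drive the type I collagen gene in osteoblasts, had 104, 90.04 and 101 CPM early, 113, 125.5 and 159.5 CPM in the middle and 196, 168 and 207 CPM late. No library of a phase overlapped with the next phase, and the fitted change was 1.21 (SE = 0.16, adjusted P = 0.00019 from edgeR). Creb3l2 (BBF2H7) lay between 141 and 143 CPM on early days and between 189 and 207 CPM on late days, and rose by 0.61 (SE = 0.14, adjusted P = 0.00349 from edgeR).

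Xbp1, the factor activated by Ern1, had 105, 111 and 112 CPM early, 112, 107 and 127 CPM in the middle and 136.5, 147 and 162 CPM late. The late libraries were above all others, and the fitted change was 0.60 (SE = 0.11, adjusted P = 0.00133 from edgeR). These counts do not separate the spliced from the unspliced Xbp1 RNA. Ern1 lay between 21.8 and 32.7 CPM with no direction on the line (0.04, SE = 0.18, adjusted P = 0.855 from edgeR).

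Eif2ak3 (PERK), the kinase that slows translation, had 15.1, 21.7 and 22.6 CPM early, 24.5, 29.9 and 27.6 CPM in the middle and 29.98, 31.0 and 30.2 CPM late. Its low value on day 2 stood apart from the rest, and it rose by 0.86 (SE = 0.18, adjusted P = 0.00227 from edgeR), a call lost with limma on TPM (adjusted P = 0.063). Atf4, the factor translated when PERK is active, had 153, 114 and 118 CPM early, 112, 77.2 and 79.6 CPM in the middle and 80.4, 89.0 and 92.7 CPM late. It fell by 0.74 (SE = 0.20, adjusted P = 0.00953 from edgeR), and without day 2 the value was -0.52 and the call was lost (adjusted P = 0.072).

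Ddit3, Ppp1r15a and Trib3, which act after Atf4 in the same branch, did not pass on the line. Ddit3 (CHOP), a factor linked to cell death under lasting stress, lay between 7.0 and 10.2 CPM (-0.18, SE = 0.18, adjusted P = 0.403 from edgeR) and lies opposite Mars, which had 14970 counts against 3164. Ppp1r15a (GADD34), which restores translation, lay between 13.6 CPM on day 2 and 7.2 CPM on days 8 and 10 (-0.43, SE = 0.27, adjusted P = 0.195 from edgeR). Trib3, an inhibitor that CHOP induces, had 23, 18 and 17 counts early, 15, 9 and 2 counts in the middle and 16, 1 and 5 counts late (-2.45, SE = 1.10, adjusted P = 0.0838 from edgeR). Its line passed without replicate 1 (-3.40, adjusted P = 0.0228) and without day 14 (-3.20, adjusted P = 0.0417), and with so few counts the value depends on single libraries. Atf6 lay between 75.6 CPM on day 2 and 49.0 CPM on day 8, with 64.9 CPM on day 18. Its line did not pass (-0.12, SE = 0.17, adjusted P = 0.575 from edgeR), while the spline did (adjusted P = 0.00947 from edgeR).

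Between the early and middle days, 5 of the 36 genes were higher and 6 lower by the 3-phase fit, against 17.3% and 13.6% of all genes (31.0% in either direction). Those higher were Crtap (0.79), Eif2ak3 (0.47), Ppib (0.46), Creb3l1 (0.43) and Dnajb9 (0.48), with adjusted P from 0.0156 to 0.0500 from edgeR. Those lower were Ero1l (-0.67), Hyou1 (-0.62), Ppp1r15a (-0.57), Canx (-0.53), Atf4 (-0.52) and Hsp90b1 (-0.33), with adjusted P from 0.00713 to 0.0423 from edgeR. With TMM factors, 1 gene (Crtap) was higher and 8 were lower, so the split depends on the scaling, and leaving out 1 day gave between 3 and 12 genes in place of 11.

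Between the middle and late days no listed gene and no gene of the 15659 (0.0%) passed with edgeR, while 2557 genes had an unadjusted P under 0.05. DESeq2 called 562 genes (3.59% of those it tested), of which 3 were listed here and higher late, namely Herpud1 (0.55, adjusted P = 0.00791), Creb3l1 (0.54, adjusted P = 0.0354) and Xbp1 (0.38, adjusted P = 0.0388). The values of edgeR for these genes were 0.54, 0.52 and 0.36.

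Ratios of counts within a library do not depend on the scaling between libraries. For 6 pairs they were compared over the 9 days by exact permutation of the day labels (two-sided, adjusted over 6 pairs). Counts are not divided by transcript length, so a ratio is read for its trend over days and not for which gene is more abundant. Set against its client Col1a1, which rose from 4963 to 12724 CPM (1.23, SE = 0.23, adjusted P = 0.00131 from edgeR), Serpinh1 gave a ratio of 0.134 on day 2 and 0.0558 on day 18 (Spearman's rho = -0.733, exact permutation P = 0.0311, adjusted P = 0.0467). Pearson's r was -0.783 (exact permutation P = 0.00494, adjusted P = 0.00989). Without days 2 and 18 it was -0.729 (exact permutation P = 0.0651), a value of similar size that no longer passed 0.05 over the other 7 days.

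Hspa5 fell further against Col1a1, from 0.266 to 0.0902 (rho = -0.817, exact permutation P = 0.0108, adjusted P = 0.0215, and r = -0.88, exact permutation P = 0.000766, adjusted P = 0.0046). Without days 2 and 18 its r was -0.874 (exact permutation P = 0.0119). The ratio of the collagen chaperone to the general chaperone, Serpinh1 to Hspa5, lay between 0.463 and 0.508 from day 2 to day 8 and between 0.583 and 0.644 from day 10 to day 18 (rho = 0.817, exact permutation P = 0.0108, adjusted P = 0.0215, and r = 0.867, exact permutation P = 0.00471, adjusted P = 0.00989). Without the outer days r was 0.91 (exact permutation P = 0.00754). The libraries of days 2 to 8 and of days 10 to 18 did not overlap in this ratio.

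Creb3l1 gained on Xbp1, from 0.989 on day 2 to 1.28 on day 18, with a peak of 1.44 on day 14 (rho = 0.817, exact permutation P = 0.0108, adjusted P = 0.0215, and r = 0.799, exact permutation P = 0.0116, adjusted P = 0.0175). Without the outer days r was 0.854 (exact permutation P = 0.0163). In TPM, Creb3l1 lay below Xbp1 on each of the 9 days, with 134 against 148 TPM on day 14. The ratios of Ddit3 to Hspa5, between 0.00654 and 0.00917, and of Pdia4 to P4hb, between 0.383 and 0.431, did not pass (rho = 0.283 and -0.533, exact permutation P = 0.463 and 0.148, adjusted P = 0.463 and 0.177). For these pairs r was 0.0828 and -0.654 (exact permutation P = 0.835 and 0.0612, adjusted P = 0.835 and 0.0734), and -0.0189 and -0.604 without the outer days (exact permutation P = 0.976 and 0.152). In each of the 4 pairs that passed, leaving out any 1 of days 2, 4, 6 and 8 took the adjusted P over 0.05, as did day 18 for Creb3l1 to Xbp1 and days 10 and 18 for Serpinh1 to Col1a1, with rho from 0.738 to 0.809 for the positive and from -0.619 to -0.738 for the negative pairs in those cases.

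**Figure D4:**
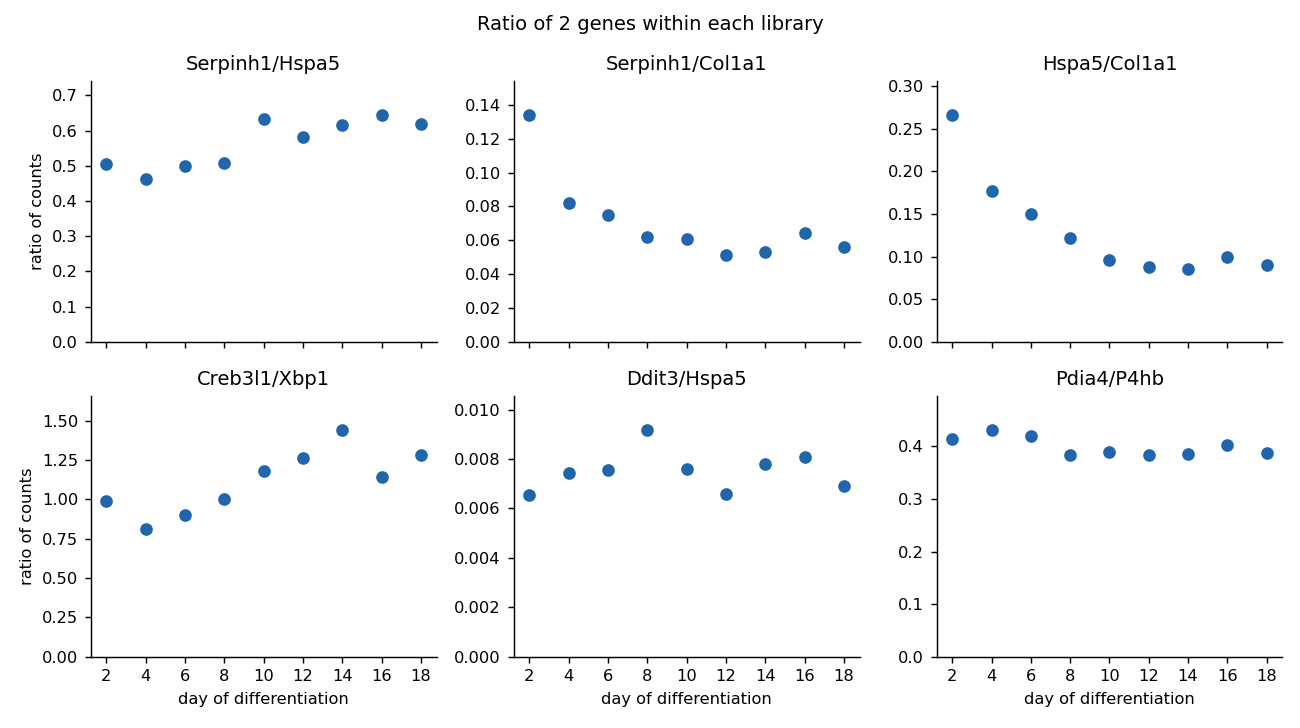
Ratio of the counts of 2 genes, not divided by transcript length, in each of the 9 libraries (y axis, from 0) against day of differentiation (x axis), 1 panel for each of 6 pairs. Serpinh1 to Hspa5 steps up between days 8 and 10, both ratios to Col1a1 drop most between days 2 and 8, and Ddit3 to Hspa5 stays between 0.00654 and 0.00917.

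Returning to the promoters, the 8 genes with ERSE had fitted changes below 0 in 8 of 8 cases, with a median of -0.23, of which Hsp90b1 and Canx fell and 0 rose. The other 22 listed genes with a window had a median of -0.02, with 11 of 22 below 0, and 8 rose and 3 fell. Outside the list, the 12 tested genes with ERSE had a median of 0.21, with 5 of 12 below 0, 3 higher and 2 lower, and all 10288 tested genes with a window had a median of 0.04, with 4979 below 0, 2999 higher and 2888 lower. Dnajb11 and Herpud1, which share ERSE-II, moved in opposite directions (-0.39 and 1.00). These are descriptions of the listed genes and were not tested. Of the genes with ERSE, Hspa5, Hsp90b1, Calr, Canx, Dnajc3 and Creld2 are general chaperones. That role had a median of -0.37, so element and role cannot be told apart here. Calr and Dnajc3 had values near 0 (-0.07 and -0.06) that turned sign in 1 and 3 of 21 alternatives.

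The other genes of the same pathways were read from further lists, with the 2 genes named per list that had the largest fitted changes among those past the threshold with a mean of at least 10 TPM. Of 14 other procollagen modification genes found, 9 rose and 2 fell, against 28.3% higher and 26.1% lower of all genes tested. Fkbp7, an ER prolyl isomerase, went from 12.95 CPM on day 2 to 68.8 CPM on day 18 (2.37, SE = 0.27, adjusted P = 9.15e-05 from edgeR), and Leprel2, a prolyl 3-hydroxylase, from 34.0 to 151 CPM (2.16, SE = 0.31, adjusted P = 0.00031 from edgeR). Of 5 collagen genes, 3 rose, led by Col3a1 (2.30) and Col1a2 (1.92), and 0 fell.

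In each list of the general secretory machinery more genes fell than rose. Beside this, 26.1% of all genes tested were lower and 28.3% higher, and the lists were not tested against these shares. Of 11 other disulfide and redox genes, 2 rose (Prdx4 at 0.94 was named) and 4 fell (Dnajc10 at -0.71). Of 15 other degradation genes, 2 rose (Os9 at 1.43) and 8 fell (Ube2g2 at -0.84). Among 13 genes of glycan addition and the lectin cycle, 2 rose (Ddost at 0.74) and 7 fell, with Uggt1, the sensor that returns misfolded glycoproteins to calnexin, going from 114.5 to 65.4 CPM (-1.01, SE = 0.11, adjusted P = 7.42e-05 from edgeR). Among 17 genes of the translocon and signal peptide, 2 rose (Ssr2 at 0.82) and 7 fell (Srprb at -0.99).

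Of 17 genes of amino acid supply and the integrated stress response, many of which are Atf4 targets, 3 rose and 9 fell, with a median of -0.90. Among all genes tested, 28.3% rose and 26.1% fell. Asns, asparagine synthetase, went from 67.7 CPM on day 2 to 11.5 CPM on day 18 (-2.82, SE = 0.30, adjusted P = 6.55e-05 from edgeR), and Psat1, of serine synthesis, from 147 to 45.0 CPM (-2.03, SE = 0.22, adjusted P = 7.85e-05 from edgeR). Of 5 genes that control eIF2alpha, 0 rose and 3 fell, among them Eif2s1, which encodes eIF2alpha itself (-1.33), and Ppp1r15b (-0.52). Of 8 tested genes that process the stress factors, 2 rose and 2 fell. Creb3 itself was among those that fell (-0.39, SE = 0.15, adjusted P = 0.0404 from edgeR), Creb3l3, with between 1 and 55 counts in a library, was among those that rose (3.86, SE = 0.80, adjusted P = 0.00232 from edgeR), and Creb3l4 did not pass (1.48, SE = 0.79, adjusted P = 0.139 from edgeR). These are named outside the rule above, after their values were seen. The proteases that cut Atf6 and the Creb3 factors were on either side, with Mbtps1 (site-1 protease) at 1.34 and Mbtps2 (site-2 protease) at -0.56.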

How the data were processed

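RNA sequencing profiles of 9 days of calvarial osteoblast differentiation were used, 3 a day. Per the labels and the study's methods, cDNA was amplified (NuGEN Ovation), sequenced as TruSeq libraries and quantified on the NCBIM37 transcriptome, with Bowtie 0.12.9 and RSEM 1.2.8 named in the submitters' processing notes. The study's methods name another version of RSEM. The estimated counts that were deposited are the expected counts of RSEM, not normalized. The deposited TPM values are abundances per transcript length. The FPKM values that were deposited were not used.

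Counts of a day were summed over its 3 profiles and rounded. The profiles differed within sampling noise over genes with exactly whole counts of at least 30 (chi-square per degree of freedom 0.999 to 1.02) and by 1.21 to 1.45 over all such genes, where RSEM divides shared reads. Profiles with the same replicate number, which coincides with the lane, had a mean correlation of deviations of 0.0056 (different numbers, -0.0028), and the number was not taken as a pairing. The 9 sums were fitted in edgeR 4.0.16 under R 4.3.3, with upper-quartile factors, a filterByExpr minimum count of 10, glmQLFit and glmQLFTest without the robust option, and an adjusted P under 0.05, on a line in day and on 3 phases. TPM was divided by the 75th percentile of a profile, rescaled and averaged over the day. Ratios were tested over all 362880 orders of the days (Python 3.11.15, scipy 1.17.1). The fits were tested on simulated data.

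Alternatives were TMM factors, DESeq2 1.42.0, limma 3.58.1 on log2(TPM + 0.5), other filters and thresholds, a spline with 3 degrees of freedom, late against early days, removal of mitochondrially encoded genes, lanes as 27 samples without and with a block, and each profile or day left out. All 36 genes are named, and of each other list the 2 with the largest changes past the threshold and a mean of at least 10 TPM. Genes, lists and tests were chosen with earlier results of these data known. The values of 1 marker list are not reported here.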

Additional observations from a re-analysis of the deposited data

How the results depend on the processing

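With 1 library a day, P-values measure scatter between days, and depth limits Trib3 most. Of 1166 recomputed values, 996 had the same sign and call or, for counts, stayed within 1.5 times. Lanes entered as 27 samples are not independent libraries. They gave 10754 genes on the line without and 10649 with the replicate block, and 29 listed genes in both. Between early and middle days they gave 9621 genes without and 9456 with the block and 27 listed genes in both, and between middle and late days 5648 and 5361 genes and 20 and 18 listed genes. At an adjusted P of 0.01, 1607 genes and 3 listed genes differed between early and middle days, and 6 listed genes did without the filter on low counts. DESeq2 called 562 genes and 3 listed genes between middle and late days. Leaving out 1 day or profile gave 2175 to 6257 genes and 3 to 12 listed genes between early and middle days, and 0 to 379 genes and 0 to 1 listed gene (Creb3l1) between middle and late days, with the upper values of 379 and 1 without day 12. For early against middle days the listed genes numbered 4 without day 2, 3 without day 4, 3 without day 10, 4 without day 12, 5 without day 14, 6 without day 16 and 5 without day 18. For the ratios, rho ranged over the same settings from 0.733 to 0.905 for Serpinh1/Hspa5, from -0.905 to -0.619 for Serpinh1/Col1a1, from -0.929 to -0.738 for Hspa5/Col1a1, from 0.738 to 0.905 for Creb3l1/Xbp1 and from -0.0238 (without day 2) to 0.571 for Ddit3/Hspa5. Fitted changes turned sign for Calr with limma (0.117), Dnajc3 without day 2 (0.0415), without day 4 (0.00178) and with limma (0.0377), with a lowest value of -0.154 over the days left out, Ern1 with TMM factors (-0.00155) and without day 6 (-0.0273), day 16 (-0.00126) or day 18 (-0.0464), with a highest value of 0.285, and Atf6 without day 2 (0.143), with a lowest value of -0.283, none of which passed the threshold. The causes were not tested.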
